A study of Drosophila melanogaster with 2 samples.

Results

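The receptor Notch, its ligands and the core of its signalling machinery were followed in sorted type II neuroblast lineages of Drosophila melanogaster larval brains, with and without knockdown of the tumour suppressor brat. The 10 genes were picked as components of the pathway, with earlier results of these data known, and were N, Dl, Ser, neur, kuz, Psn, Su(H), mam, H and gro. They are 10 of the 14284 genes in the count tables, and all were matched by their exact symbols. The study compared 1 brat RNAi library with 1 control library. In the brat RNAi group a hairpin against brat was expressed in animals that also carried UAS-CD8::GFP, UAS-dicer2, tub-Gal80ts and the drivers asense-Gal4 and wor-Gal4, named as in the labels. Crosses that mark type II lineages usually pair wor-Gal4 with asense-Gal80, which keeps Gal4 off in type I neuroblasts, so this label may be an error, and which cells were marked is uncertain to that extent. The control carried the same transgenes without the hairpin. Gal80ts blocks Gal4 at the lower temperature, and knockdown is limited to cells in which the drivers are active. Larvae of both groups were raised at 18 °C and moved to 29 °C in the third instar, and brains were taken 24 h later. GFP-positive type II neuroblasts and their 24 h progeny were collected by fluorescence-activated sorting, so each library is a mix of stem cells, intermediate progenitors and their young offspring. The labels give neither the sex of the larvae nor the number of brains. With 1 library per group there is no replicate check, and every difference below describes these libraries.

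Notch is a receptor that is cut when a ligand on a neighbouring cell pulls on it. Its freed inner part then enters the nucleus, binds the DNA-binding protein Suppressor of Hairless together with Mastermind, and turns on target genes that a Hairless complex otherwise keeps off. In fly neural stem cell lineages, Notch signalling keeps neuroblasts self-renewing, and the daughter cell that inherits Numb is shielded from it. Brat is a TRIM-NHL translational repressor that the same daughter cell inherits, and its loss lets type II daughters revert to neuroblasts. RNA levels do not measure receptor cleavage, ligand activity or protein.

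Gene counts summed to 15236504 read pairs in the brat RNAi library and 16566265 in the control library. The targeted gene, brat, had 6312 read pairs in the brat RNAi library and 12210 in the control library, a log2 ratio of -0.69. The neuroblast genes dpn and mira were abundant in both libraries, with 3416 and 29722 read pairs in brat RNAi cells and 2081 and 26290 in control cells. The glial gene repo had 108 and 138 read pairs in the brat RNAi and control libraries. Read pairs of ase, a gene of type I neuroblasts and maturing intermediate progenitors, numbered 1236 and 1790 in the brat RNAi and control libraries. Markers of tissues outside the sort went both ways. The germline genes yl and dhd together had 15 read pairs in the brat RNAi library and 1169 in the control library, the muscle genes Mhc and Mlc2 had 74 and 198, and the fat body gene Lsp1beta had 16 and 71. The hemocyte gene Hml, the most abundant of these markers, had 5039 read pairs in brat RNAi cells and 4325 in control cells, a log2 ratio of 0.48 (0.42 to 0.54), while He, another hemocyte gene, had 27 and 81.

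Of the 10 genes, N alone was at least 1.5-fold apart between the libraries, and it was higher in brat RNAi cells. A gene is counted here as apart when its ratio, after scaling the libraries by median-of-ratios size factors, is at least 1.5-fold and its 95% exact counting interval excludes a log2 ratio of 0. Among the 9142 genes with at least 20 read pairs in all, called measured below, 5.93% were higher by this rule and 8.32% were lower. All 10 members were measured, and none was lower by it. None reached 2-fold, against 1.15% of measured genes in the higher direction and 4.48% in the lower one. The median log2 ratio of the members was 0.28, against 0.0040 over all measured genes. Counting intervals lay wholly above 0 for 7 members (N, Dl, neur, kuz, mam, H and gro) and wholly below 0 for 2 (Psn and Su(H)), while that of Ser included 0. Over all measured genes 30.7% had an interval above 0 and 24.3% below. Among the 6099 measured genes at least as abundant as the scarcest member, these shares were 42.8% and 23.7%. Intervals cover counting error only and hold no spread between animals or libraries. Read pairs without molecular identifiers are not independent molecules, so the intervals may be too narrow even for counting error.

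**Figure D1:**
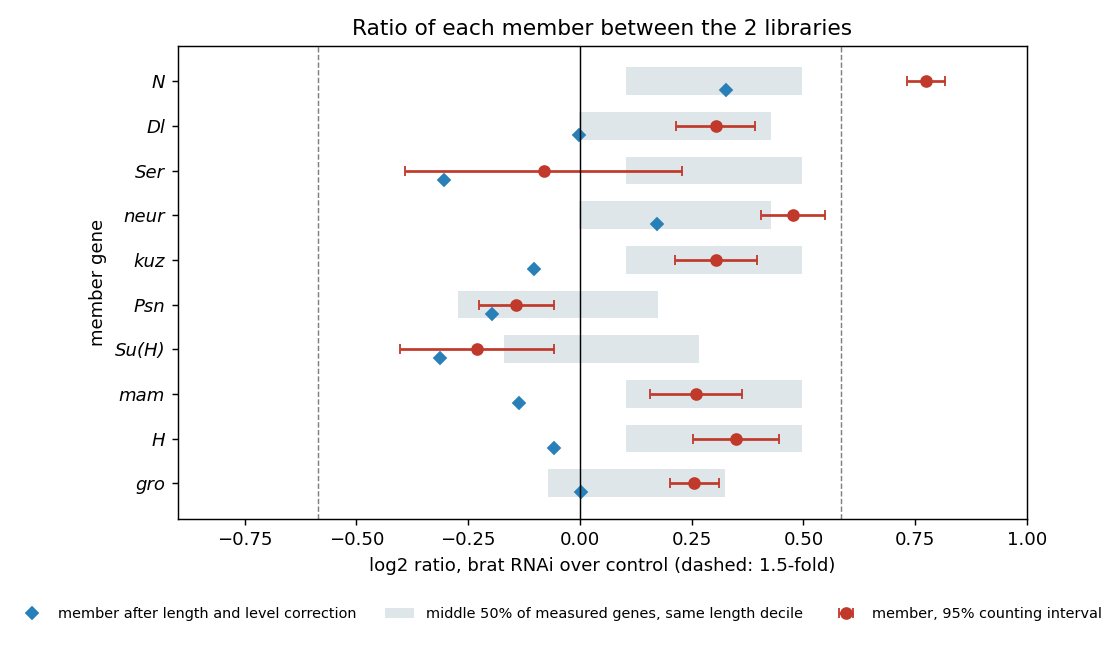
Log2 ratio of brat RNAi over control (horizontal axis) for each of the 10 members (rows). Red points are the members with 95% counting intervals, grey bars span the middle 50% of measured genes in the same decile of transcript length, and blue diamonds give the ratio after correction for length and level. N at 0.77 is the only point beyond the dashed 1.5-fold line, and its corrected value is 0.33.

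The receptor gene N (FBgn0004647, on the X chromosome) had 11065 read pairs in the brat RNAi library and 7760 in the control library. Scaled for depth these were 12115 and 7088 normalised counts, and the brat RNAi library was the higher. The ratio was 1.71-fold, or 0.77 on the log2 scale with a counting interval of 0.73 to 0.82. Only 3.24% of measured genes had a ratio as high or higher. After the correction for transcript length and level described below, the log2 ratio of N was 0.33, under the 1.5-fold threshold. N also took a larger share of all gene counts, 0.0726% in brat RNAi cells and 0.0468% in control cells. Of the neuroblast markers listed, 4 had intervals above 0 and ase had its interval below 0. The summed normalised count of 5 such markers was 47150 in the brat RNAi library and 34220 in the control library, and none was at 0 in either. Of these sums mira supplied 32542 and 24012. The markers' log2 ratios were 0.98 for dpn, 0.62 for klu, 0.44 for wor, 0.44 for mira and -0.27 for ase. Before correction N thus lay between dpn and klu. After it, dpn stood at 0.90, wor at 0.33, klu at 0.32, mira at 0.19 and ase at -0.41, beside 0.33 for N. Of the 4 type II lineage markers, pnt was at 0.91, btd at 0.47, ham at 0.16 and erm at -0.05. After correction pnt stood at 0.65, btd at 0.27, ham at -0.19 and erm at -0.23. The part of these markers in the ratio of N was not tested, and in bulk RNA more cells of a type and more RNA per cell cannot be told apart.

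The ligand genes differed less, and their levels were far apart. Delta (Dl, FBgn0000463, chromosome arm 3R), a transmembrane ligand of Notch, had 2135 read pairs in the brat RNAi library and 2074 in the control library. The normalised counts were 2338 and 1894, slightly higher in brat RNAi cells, with a log2 ratio of 0.30 (0.22 to 0.39). Serrate (Ser, FBgn0004197, arm 3R), the other Notch ligand of the fly and a relative of vertebrate Jagged, had only 157 read pairs in the brat RNAi library and 199 in the control library. Its normalised counts of 172 in brat RNAi cells and 182 in control cells did not differ beyond counting error, with a log2 ratio of -0.08 (-0.39 to 0.23). At this depth a difference in Ser of up to the interval's bounds was not detectable. Ser made up 6.85% of the ligand read pairs in brat RNAi cells (95% exact interval 5.85% to 7.96%) and 8.75% in control cells (7.62% to 9.99%).

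Neuralized (neur, FBgn0002932, arm 3R), a ubiquitin ligase that makes Delta active by driving its endocytosis, stood nearest to the 1.5-fold threshold after N. Its read pairs numbered 3468 in the brat RNAi library and 2989 in the control library. The normalised counts were 3797 and 2730, the higher in brat RNAi cells, and the log2 ratio was 0.48 (0.40 to 0.55), or 1.39-fold. This value is less certain than those of the other members. In the current annotation, BDGP6, the antisense RNA gene CR31429 lies inside neur and overlaps 38.8% of its exon length. CR31429 was itself counted, with 1507 read pairs in brat RNAi cells and 1045 in control cells, a log2 ratio of 0.79 (0.67 to 0.90). The overlap is 1673 nt, and the median annotated transcript of CR31429 is 1743 nt. The strand setting of the counting is not given in the sources used here, so whether reads of the pair were told apart in the overlap is not known. For gro the exon overlap with a gene on the opposite strand was 4.06% of its exon length and for Psn it was 2.29%. Leaving out transposable elements, no annotated gene overlapped N, Dl, Ser, Su(H) or H.

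The proteases that release Notch lay on either side of 0 before correction for length and level, and both lay below 0 after it. Kuzbanian (kuz, FBgn0259984, arm 2L), the ADAM-family metalloprotease that makes the ligand-dependent cut outside the membrane, had 1944 read pairs in brat RNAi cells and 1887 in control cells. Its normalised counts of 2128 and 1723 were higher in brat RNAi cells, at a log2 ratio of 0.30 (0.21 to 0.40). Presenilin (Psn, FBgn0019947, arm 3L), the catalytic subunit of the gamma-secretase that makes the cut within the membrane, had 2019 read pairs in brat RNAi cells and 2671 in control cells. Here the normalised counts of 2211 and 2440 were lower in brat RNAi cells, at -0.14 (-0.23 to -0.06). There were 1.04 Psn read pairs for each kuz read pair in the brat RNAi library and 1.42 in the control library. That within-library ratio, which needs no scaling between libraries, differed by -0.45 on the log2 scale (-0.57 to -0.32). Corrected for length and level, that difference was -0.094.

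In the nuclear complex, before correction for length and level, the DNA-binding member was lower in brat RNAi cells while its partners were slightly higher. After it, Su(H) stood at -0.31, mam at -0.14, H at -0.06 and gro at 0.00. Suppressor of Hairless (Su(H), FBgn0004837, arm 2L), which binds the DNA of Notch targets whether they are on or off, had 478 read pairs in the brat RNAi library and 672 in the control library. The normalised counts were 523 and 614, and the log2 ratio was -0.23 (-0.40 to -0.06). Mastermind (mam, FBgn0002643, arm 2R), the coactivator that joins Notch and Su(H), had 1538 read pairs in the brat RNAi library and 1539 in the control library, which scaled to 1684 in brat RNAi cells and 1406 in control cells. Its log2 ratio was 0.26 (0.16 to 0.36). The raw counts were equal within 1 read pair, but the brat RNAi library held fewer gene counts. The share of mam in all gene counts was 0.0101% in brat RNAi cells and 0.00929% in control cells. The size of the difference in mam thus depends on the scaling, and the log2 ratio was 0.12 under total count scaling.

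Hairless (H, FBgn0001169, arm 3R) binds Su(H) in the absence of Notch and brings in the corepressors Groucho and CtBP. It had 1835 read pairs in the brat RNAi library and 1727 in the control library, or 2009 and 1577 normalised counts, at a log2 ratio of 0.35 (0.25 to 0.44). Groucho (gro, FBgn0001139, arm 3R), a corepressor shared by Hairless and by the Enhancer of split repressors, had 5540 read pairs in brat RNAi cells and 5561 in control cells. The normalised counts were 6066 and 5079, at 0.26 (0.20 to 0.31). The raw count of gro was slightly lower in brat RNAi cells, while its share of all gene counts was 0.0364% there and 0.0336% in control cells. The size of its difference thus depends on the scaling. Under total count scaling the log2 ratio of gro was 0.12. There were 0.260 Su(H) read pairs per H read pair in brat RNAi cells and 0.389 in control cells, a log2 difference of -0.58 (-0.78 to -0.38), and of -0.26 after correction for length and level. Per gro read pair there were 0.0863 Su(H) read pairs in brat RNAi cells and 0.121 in control cells, a log2 difference of -0.49 (-0.67 to -0.31), and of -0.32 after correction. For mam over H the within-library ratios were 0.838 in brat RNAi cells and 0.891 in control cells, and the log2 difference of -0.09 (-0.23 to 0.05) was within counting error.

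Set against transcript length, the members spanned a wide range of levels. The level used here is read pairs per kilobase of median annotated transcript length per 1000000 gene counts. In brat RNAi cells gro was highest at 122, followed by N at 73.5, Psn at 70.5, neur at 60.6, Dl at 30.6, H at 23.7, kuz at 22.8, mam at 14.5, Su(H) at 11.2 and Ser at 1.81. In control cells gro was again highest at 112, followed by Psn at 85.8, neur at 48.0, N at 47.4, Dl at 27.3, H at 20.5, kuz at 20.3, Su(H) at 14.5, mam at 13.4 and Ser at 2.11. Counting intervals overlapped for N and Psn in brat RNAi cells, and for neur and N and for Su(H) and mam in control cells. They overlapped for H and kuz in both libraries. By value alone, N had the place after gro in the brat RNAi library and a place after gro, Psn and neur in the control library. The order of N and Psn in the brat RNAi library and of neur and N in the control library was within counting error. With the longest annotated transcript in place of the median, 8 of the 10 genes kept their place in both orders, and N and neur changed places in the control library. Among measured genes with a known length, gro lay above 92.8% in brat RNAi cells and 91.6% in control cells. Ser lay above 21.1% in brat RNAi cells and 19.9% in control cells, and N above 87.3% and 79.2%. The receptor was thus among the more abundant transcripts in both libraries, and Ser among the scarcer ones.

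**Figure D2:**
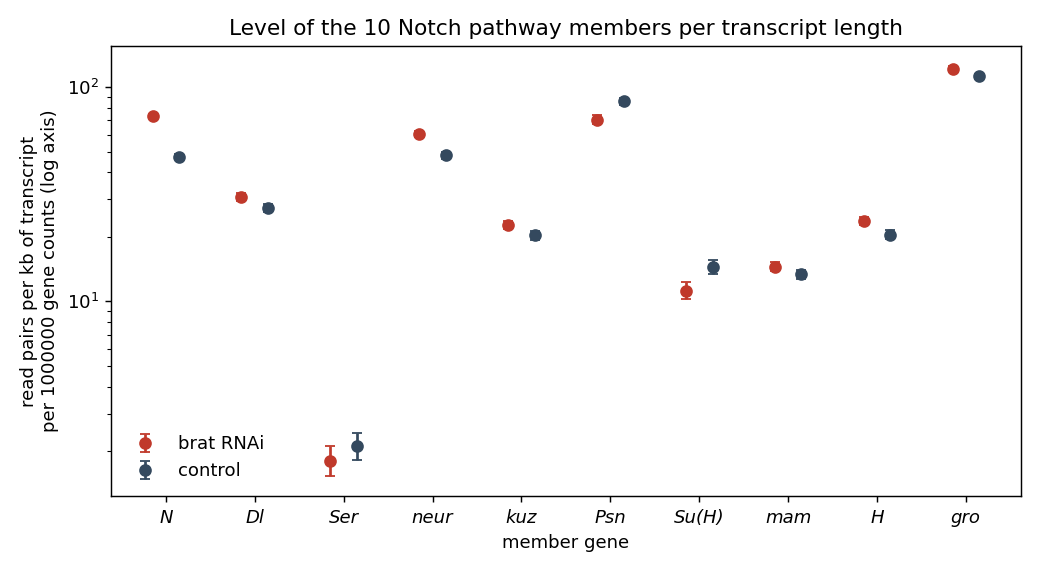
Level of each member in read pairs per kilobase of transcript per 1000000 gene counts (vertical log axis), with the brat RNAi library in red to the left of the control library in dark blue, and 95% counting intervals as bars. The levels run from about 2 for Ser to 122 and 112 for gro in the brat RNAi and control libraries, and N shows the widest gap between libraries among the 7 members that are higher in brat RNAi cells.

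The make-up of the pathway's own read pairs needs no scaling between libraries. Its shares are not corrected for transcript length or level, and N has the longest median transcript of the members and Psn the shortest. The 10 genes together took 30179 read pairs in the brat RNAi library and 27079 in the control library, or 0.198% and 0.163% of gene counts. N supplied 36.7% of them in brat RNAi cells (95% exact interval 36.1% to 37.2%) and 28.7% in control cells (28.1% to 29.2%). Psn supplied 6.69% in brat RNAi cells and 9.86% in control cells, gro 18.4% and 20.5%, and Su(H) 1.58% and 2.48%. The share of neur was 11.5% in brat RNAi cells and 11.0% in control cells, with overlapping intervals. Summed without N, the other members had a log2 ratio of 0.25 (0.22 to 0.28), against 0.42 (0.39 to 0.44) with it.

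Relative to the receptor, both ligands were scarcer in the brat RNAi library. There were 0.193 Dl read pairs per N read pair in brat RNAi cells and 0.267 in control cells, a log2 difference of -0.47 (-0.57 to -0.37). For Ser these ratios were 0.0142 in brat RNAi cells and 0.0256 in control cells, a log2 difference of -0.85 (-1.17 to -0.54). Ser was scarcer relative to Dl too, at 0.0735 in brat RNAi cells and 0.0959 in control cells, a log2 difference of -0.38 (-0.71 to -0.06). Corrected for length and level, the differences were -0.33 for Dl over N, -0.63 for Ser over N and -0.30 for Ser over Dl. The ratio of neur to Dl was 1.62 in brat RNAi cells and 1.44 in control cells, a log2 difference of 0.17 (0.06 to 0.29). Such ratios show unequal change and do not say which gene of a pair changed. In all, 8 pairs were compared, with no test.

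**Figure D3:**
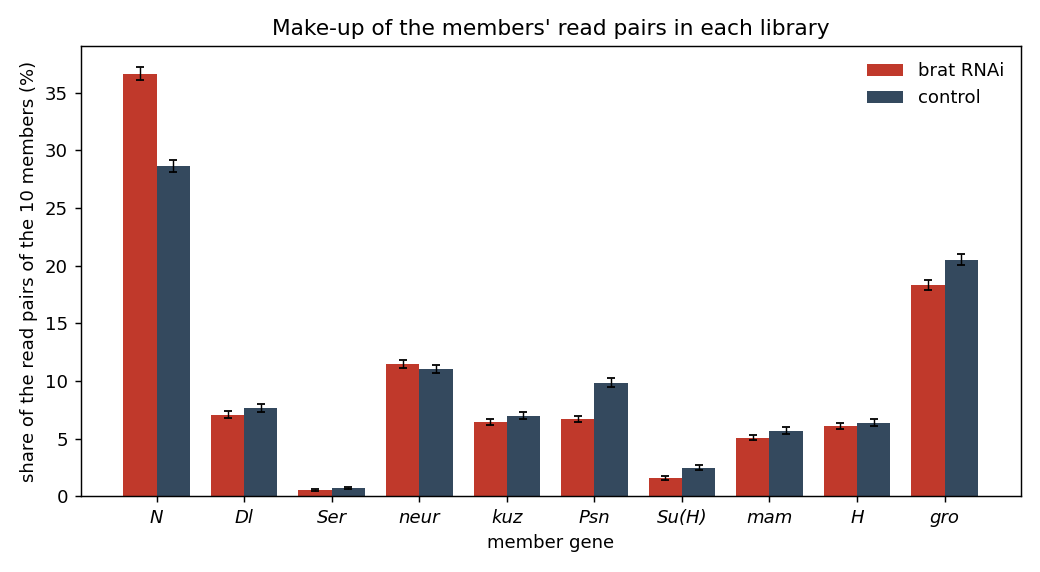
Share of the read pairs of the 10 members (vertical axis, percent) that each member supplied in the brat RNAi library (red, left) and the control library (dark blue, right), with 95% exact intervals. N supplied 36.7% in brat RNAi cells and 28.7% in control cells, and Psn 6.69% and 9.86%. Shares are not corrected for transcript length or level.

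The ratio between these libraries followed both transcript length and level. Spearman's rho of the log2 ratio was 0.40 with transcript length and 0.40 with mean normalised count across 8875 measured genes, a description only, since genes of the same 2 libraries are not independent. N has a median annotated transcript of 9880.5 nt, and N, Ser, mam, H and kuz all fell in the longest decile of genes, whose median log2 ratio was 0.32. In that decile 15% of genes were at least 1.5-fold higher in brat RNAi cells. The ratio of N lay above 94.0% of those genes, while kuz lay above 47.6%, H above 54.8%, mam above 41.3% and Ser above 13.4%. Dl and neur, in the next decile, lay above 60.5% and 80.1% of its genes. The shorter genes Psn and Su(H) lay above 37.0% and 21.7% of the genes of their own deciles, and gro above 66.4%.

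A correction that subtracted the median of each length decile, and then of each level decile, lowered every member's value. N stood at 0.33 after this correction, no longer 1.5-fold, and neur at 0.17. Dl and gro stood at 0.00, H at -0.06, kuz at -0.10, mam at -0.14 and Psn at -0.20. The lowest were Ser at -0.30 and Su(H) at -0.31. The median of the 10 was then -0.08, and 3 members were above 0. Counting intervals moved by the same amounts lay above 0 for 2 members and below 0 for 4, against 7 and 2 before correction. The correction takes length and level together, and any true difference common to long or abundant genes would be taken out with it.

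**Figure D4:**
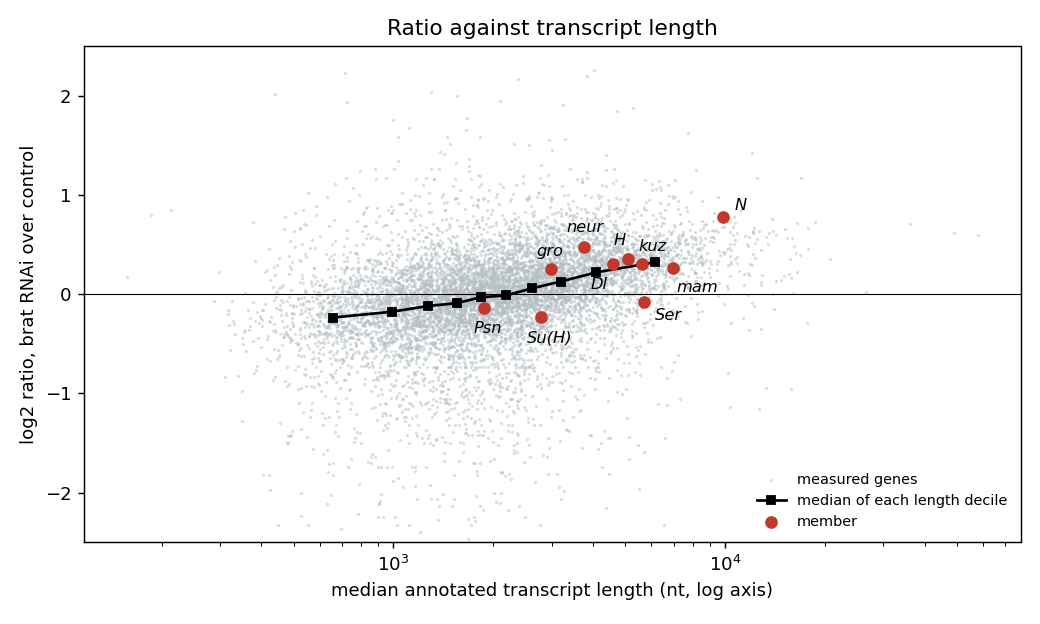
Log2 ratio of brat RNAi over control (vertical axis) against median annotated transcript length in nt (horizontal log axis) for measured genes (grey), the median of each length decile (black squares) and the 10 members (red, named). The medians climb from -0.24 in the shortest decile to 0.32 in the longest, N lies above that line and Ser and Su(H) below it; 82 genes beyond 2.5 in size lie outside the axis.

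The wider pathway was described with 42 other genes listed by their role, all of them measured. Of these, 5 were at least 1.5-fold higher in brat RNAi cells and 1 was lower, 11.9% and 2.38% of the list, against 5.93% and 8.32% of measured genes. The median log2 ratio of the list was 0.18. The genes that were higher lay close to the threshold. In the nuclear group, 4 of 12 were higher. These were Smr, the fly relative of the vertebrate corepressor SMRT, at 0.64 with 6987 read pairs in brat RNAi cells and 5374 in control cells, sno (strawberry notch) at 0.63, and nej, the CBP acetyltransferase that works with Mastermind, at 0.61. The last was the Mediator kinase module subunit skd, at 0.59. The median of that group was 0.29, and its other named members lay lower, with CtBP at 0.28 and Bx42, the fly SKIP protein, at 0.30. The kinase module's CycC stood at -0.31. After correction for length and level together, nej, Smr, sno and skd stood between 0.14 and 0.23, under the 1.5-fold threshold.

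Genes that modify and cut the receptor stood lowest, with a median of -0.08 over 9 genes. Tace, a metalloprotease related to Kuzbanian, was the gene at least 1.5-fold lower. It had 303 read pairs in brat RNAi cells and 637 in control cells, at a log2 ratio of -0.81 (-1.01 to -0.61), and it stood at -0.77 after correction. The gamma-secretase partners of Presenilin did not move together. Nicastrin (nct) was at 0.19 (0.10 to 0.28), aph-1 at -0.22 (-0.38 to -0.05) and pen-2 at -0.53 (-0.94 to -0.12), the last on 81 read pairs in brat RNAi cells and 140 in control cells. After correction these stood at 0.05, -0.07 and -0.16. O-fut1, which adds fucose to the receptor's EGF repeats, was at -0.08 (-0.18 to 0.02).

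Genes of ligand trafficking and of receptor trafficking held 1 gene apart between them. This was Nak, an endocytic kinase, at 0.59 (0.47 to 0.71), 1 of 6 genes in the ligand group, whose median was 0.18. Mindbomb (mib1), the other ubiquitin ligase for Notch ligands, was at 0.00 (-0.10 to 0.09) with 1708 read pairs in brat RNAi cells and 2052 in control cells. The interval of neur did not overlap that of mib1. The glycosyltransferase gene fng, which tunes the receptor toward Delta, was scarce and at -0.13 (-0.37 to 0.12). None of the 15 genes of receptor trafficking was apart, and their median was 0.11. In that group Su(dx), a ubiquitin ligase that lowers Notch, was highest at 0.54 (0.44 to 0.64), and numb was at 0.42 (0.36 to 0.48) with 4852 read pairs in brat RNAi cells and 4357 in control cells. Sanpodo (spdo), the membrane protein through which Numb acts on Notch, was at 0.03 (-0.04 to 0.11), and dx was at 0.11 (-0.04 to 0.26).

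**Figure D5:**
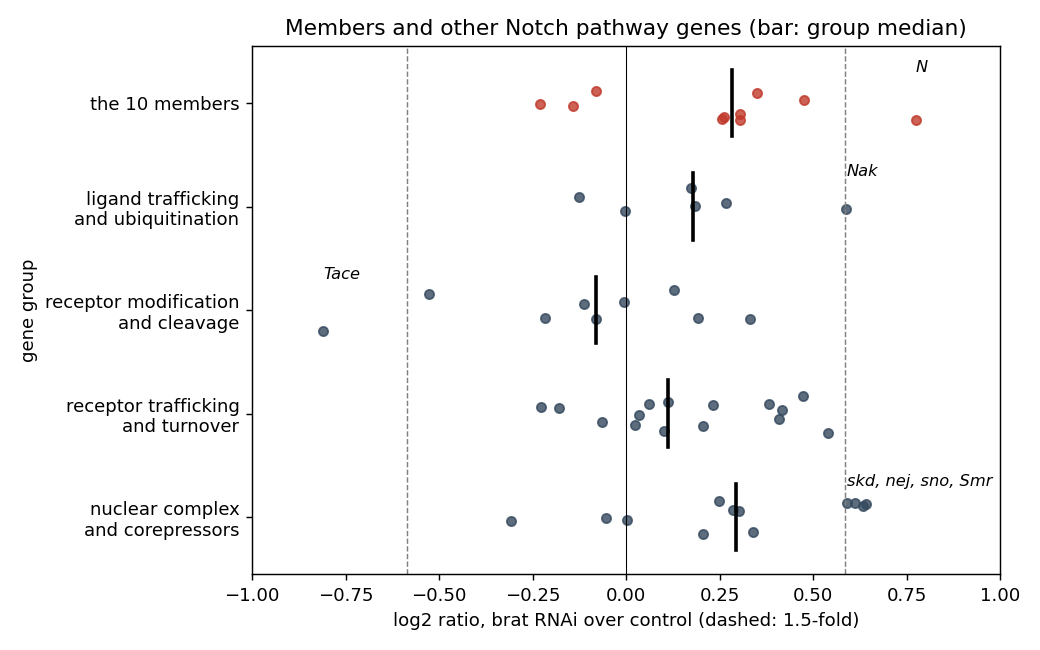
Log2 ratio of brat RNAi over control (horizontal axis) for the 10 members (red) and 42 other Notch pathway genes in 4 groups by role (dark blue), 1 point per gene with the group median as a bar; points are spread vertically for legibility. Genes beyond the dashed 1.5-fold lines are named, with N farthest to the right at 0.77 and Tace farthest to the left at -0.81.

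The Enhancer of split and Bearded family genes lay on the other side of 0 from N. They stand for only a part of the pathway's output, and the output as a whole was not followed. Of 15 Enhancer of split and Bearded family genes 14 were measured, all with their intervals below 0, against 24.3% of measured genes. By the 1.5-fold rule 9 of the 14 were lower, against 8.32%. The normalised counts of the 14 summed to 3315 in brat RNAi cells and 5625 in control cells. These genes are short, and all genes of the shortest length decile had a median of -0.24. The median log2 ratio of the 14 was -0.86, and it was -0.52 after correction for length and level. Corrected values ran from -1.08 to -0.07, and some of the 9 were then under the 1.5-fold threshold.

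With a pair of libraries, genes can be alike only in level and ratio. By distance in log2 mean normalised count and log2 ratio, the genes closest to N were Fs(2)Ket (0.083 away), vfl (0.13), which encodes Zelda, and Ranbp9 (0.14). Those closest to Dl were Arp66B, Tom7 and CG16892, with log2 ratios of 0.31, 0.30 and 0.28. Zelda is one of the transcription factors in the study's title. Its gene had 12161 read pairs in brat RNAi cells and 8068 in control cells, at a log2 ratio of 0.85, and 0.41 after correction for length and level.

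In the authors' deposited table the adjusted p-value was 1 for each of the 10 members. That table rests on the same 1 library per group. Its log2 ratios run as control over brat RNAi and, once turned round, equal those given here.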

How the data were processed

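Polyadenylated RNA of sorted cells was sequenced as 1 brat RNAi and 1 control library. For both libraries the authors deposited tables of read pair counts by gene. Their comparison table gives normalised counts (a signal per gene, base means), log2 fold changes and adjusted p-values, per the file headers, with gene identifiers of FlyBase release 5.44. Per the submitters' processing notes, the tools were TopHat 1.4.1, BWA 0.6.1, DESeq 1.8.3 and HTSeq. What each did, the build and the strand setting are not given here. The share of read pairs outside genes, 27.2% of the brat RNAi table and 22.7% of the control table, stayed out of all sums.

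Counts were divided by median-of-ratios size factors (0.913 for brat RNAi, 1.09 for control), and all 10987 finite log2 values of the authors' deposited table were matched within 1e-06. Ratios carry 95% Clopper-Pearson intervals, pair ratios exact conditional intervals and levels exact Poisson intervals (scipy 1.17.1). No test was run, since single libraries leave no residual degrees of freedom. Genes with at least 20 read pairs in all were measured. Transcript lengths came from the BDGP6 annotation for 8897 measured genes (97.3%), 203 of them matched by symbol. The annotation's build may differ from that of the counts, so no coordinates are given. The size factors and the ratio intervals with the 1.5-fold rule were tested on simulated Poisson counts. Such counts hold counting error only, so this cannot show how the intervals fare with duplicates or spread between animals. The length and level correction was tested on a simulated trend, and the other computations were not tested in this way. Alternatives were total count, TMM (edgeR 4.0.16) and upper quartile scaling, a length and level correction, no count minimum, a 2-fold threshold and the longest transcript.

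The members and lists were chosen with earlier results of these data known. Every member was named, as was each other pathway gene at least 1.5-fold apart with its interval excluding 0, and fng, O-fut1, mib1, nct, aph-1, pen-2, numb, spdo, Su(dx), dx, nej, CtBP and Bx42 always. The 3 genes nearest to N and to Dl were also named. CR31429 and CycC were named after their values were seen.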

Additional observations from a re-analysis of the deposited data

Results flagged for a closer look

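Pairs that fell in no annotated gene were not used in any comparison and made up 26.6% of the brat RNAi table and 22.0% of the control table. They are given because the share lay above the control level, and whether any came from the introns of the members cannot be read from the tables.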

How the results depend on the processing

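With 1 library per group no replicate could be left out. No paired analysis was possible because each group has 1 library and no test was run. N was at least 1.5-fold higher under each of the 3 other scalings and with no count minimum, and no member was 1.5-fold lower under any alternative. The count of members higher was 0 after the length and level correction and 0 at 2-fold. The median log2 ratio of the members was 0.14 with total count scaling, 0.17 with upper quartile scaling and -0.080, a reversal, with the correction. For the other pathway genes it was 0.037, 0.070 and -0.023, the last again a reversal. The number of these genes at least 1.5-fold higher was 0 with total count and upper quartile scaling, 3 with TMM, 0 with the correction and 0 at 2-fold. The number lower was 2 with total count and upper quartile scaling and 0 at 2-fold. Total count scaling put the median of all measured genes at -0.14 and upper quartile scaling put it at -0.10. The share of higher genes among all genes apart was 41.6%, and it was 19.1% with total count scaling, 23.1% with upper quartile scaling and 52.6% with the correction. Signs of the 10 members were the same under the 3 other scalings; with the correction 3 stayed above 0. The correction, applied to pairs after the data were seen, moved the log2 difference to -0.33 for Dl over N, -0.094 for Psn over kuz and -0.26 for Su(H) over H. The cause of these shifts was not tested. Of the other pathway genes 40 have a transcript length. Depth limits Ser most, with under 200 read pairs in either library.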
